A study of Mus musculus with 4 samples.

Results

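Ebf1, Pax5, Foxo1, Tcf3, Ikzf1, Ikzf3, Bcl11a, Pou2af1 and Lef1 are transcription factors and cofactors of the B-cell programme. They were taken by gene symbol, 9 of the 32285 genes counted, and were read in single Kit+ bone marrow cells. The marrow was taken 10 weeks after transplantation and sorted for CD45.2, an allele of the pan-leukocyte protein CD45 that can mark donor cells, and for Kit (CD117), the stem cell factor receptor of blood progenitors. RNA and bound antibodies were counted in the same cells (CITE-seq). There was 1 library for each of the 4 groups, named control, Mll3SI, Mll4SI and Mll3/4SI. The labels do not spell out SI, and give no strain, Cre, host or number of animals. MLL3 and MLL4 are the histone methyltransferases encoded by Kmt2c and Kmt2d, and the study's title names B-cell priming, the low expression of B-cell genes in uncommitted progenitors, as a process that they oppose.

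The B-cell programme is built in steps. The E protein encoded by Tcf3 (E2A), with Ikaros (Ikzf1), Bcl11a and Foxo1, acts in lymphoid progenitors before commitment, and E2A and FOXO1 help to switch on Ebf1. EBF1 opens B-cell genes and activates Pax5, whose product holds cells to the B lineage. Pou2af1 encodes a coactivator of octamer-binding factors, Lef1 a mediator of Wnt signalling that is active in pro-B cells, and Ikzf3 encodes Aiolos, an Ikaros relative of later B cells and of T and NK cells.

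Each cell class was named from fixed markers that hold none of the 9 genes. The stem-like class held 264 control, 267 Mll3SI, 184 Mll4SI and 102 Mll3/4SI cells. It joins sub-clusters of the stem and progenitor cells. The largest, 55.8% to 73.5% of the class by library, was named on 5 stem-like markers against 4 lymphoid-primed ones. The sub-cluster with the most stem-like markers, 13, made up 6.44%, 17.98%, 5.435% and 5.88% of the class in the same order. The lymphoid-primed class, led by Dntt, Ly6d and Flt3, held 85, 98, 22 and 41 cells in the same order. The B-lymphoid-like class held 66, 183, 39 and 37 cells. Erythroid-like cells (262, 215, 110 and 71) served as the level that free RNA can give for genes that erythroid cells should lack. All 4 libraries together kept 31707 cells, from totals of 140546094 to 177753607 gene UMIs per library, a UMI being a tag that marks 1 captured RNA molecule. Library pairs shared 16 to 29 cell barcodes. What the 2 hashtag antibodies stood for is not in the labels, and 153 to 564 kept cells per library carried both. Kmt2c was read at 136 to 176 CPM and Kmt2d at 23.3 to 33.9 CPM in stem-like cells of the 4 libraries, and the labels do not say whether either transcript should fall. Stem-like cells of Mll4SI and Mll3/4SI held Xist (2759 and 2266 CPM) and no UMI of the Y-linked Eif2s3y, and those of control and Mll3SI held Eif2s3y (75.1 and 82.8 CPM) and nearly no Xist, so the sex of the cells and these pairs of groups cannot be told apart. With 1 library a group there is no replicate check and no test. Bracketed values are 95% intervals for counting error alone.

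Of Ebf1, Pax5 and Pou2af1, whose levels were highest in B-lymphoid-like cells by a wide margin, the 250 bases before a RefSeq start (build GRCm38.p6) are printed 5′ to 3′ on the gene's strand, because these genes carry the B-cell pattern described here. Capitals mark the only match there to the motifs searched.

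Ebf1, second of 2 RefSeq starts, chr11:44619978-44620227, plus strand: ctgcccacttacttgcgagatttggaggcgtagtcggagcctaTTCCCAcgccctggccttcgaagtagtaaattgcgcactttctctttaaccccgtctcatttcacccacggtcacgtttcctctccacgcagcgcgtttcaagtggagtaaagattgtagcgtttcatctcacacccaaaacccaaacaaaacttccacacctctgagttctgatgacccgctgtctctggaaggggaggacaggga
Pax5, chr4:44710695-44710944, minus strand: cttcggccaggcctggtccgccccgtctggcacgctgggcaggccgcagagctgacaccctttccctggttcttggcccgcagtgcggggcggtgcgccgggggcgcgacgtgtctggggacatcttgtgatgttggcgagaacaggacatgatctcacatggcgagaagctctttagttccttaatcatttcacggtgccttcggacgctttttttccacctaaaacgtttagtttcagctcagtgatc
Pou2af1, chr9:51213440-51213689, plus strand: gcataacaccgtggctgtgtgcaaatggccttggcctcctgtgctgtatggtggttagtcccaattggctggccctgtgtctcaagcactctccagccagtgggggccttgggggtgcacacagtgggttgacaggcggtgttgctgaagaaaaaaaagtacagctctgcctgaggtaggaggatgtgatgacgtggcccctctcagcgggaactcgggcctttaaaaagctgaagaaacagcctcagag

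The motifs were TCCC and GGGA with 2 bases between (EBF1), CAGGTG (E proteins), ATGCAAAT (octamer), CTTTGAT (LEF1 and its relatives), TGTTTAC (FOXO) and TGGGAA (Ikaros), each searched on both strands, and none contains another. Of the 9 members, 8 had 13 RefSeq starts in all, and Ikzf3 had no entry. The Ikaros letters lay in the Ebf1 window above and in that of Bcl11a, against 21.6% of 32817 promoters. The EBF1 letters lay in 1 member's window, Foxo1, against 0.78% of all promoters. That match begins 92 bases before the Foxo1 start, at chr3:52268235-52268264 on the plus strand with its flanks.

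Foxo1, match to the EBF1 motif in capitals: tactgccgccTCCCGAGGGAaggcagcgcc

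A match is a string of letters and not a measured site. Transcripts of Ebf1 come from chromosome 11 (44617317 to 45008091, plus strand), those of Pax5 from chromosome 4 (44524757 to 44710487, minus strand), those of Pou2af1 from chromosome 9 (51213708 to 51240080, plus strand) and those of Lef1 from chromosome 3 (131110471 to 131224356, plus strand) in GENCODE M21 on GRCm38. Annotated genes overlap on the same strand with Pax5 (Mir5120), Pou2af1 (Gm47828), Lef1 (Gm42449), Foxo1 (Gm38034) and Ikzf3 (Gm25106), and how such reads were assigned is not given in the sources used here.

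In B-lymphoid-like cells Ebf1 was by far the most counted member. Levels are CPM, the UMIs of a gene per 1000000 UMIs of the class. Ebf1 stood at 4892, 5396, 4603 and 5782 CPM (control, Mll3SI, Mll4SI, Mll3/4SI), and every cell of the class held an Ebf1 UMI in all 4 libraries. After each cell was thinned to 3000 UMIs, which evens out depth, the share was still 99.4% to 100%. Pax5, in that order of libraries, was at 423, 398, 487 and 419 CPM, and Pou2af1 at 185, 181, 162 and 190 CPM. Lef1 stood at 699, 832, 838 and 864 CPM, the control library lowest. Thinned shares of cells ranged over the libraries from 64.7% to 71.4% for Pax5, 85.7% to 88.2% for Lef1 and 35.3% to 44.4% for Pou2af1. Unthinned, they were 89.2% to 98.5%, 95.5% to 97.4% and 74.4% to 83.3%. Thinning left out 5 control, 14 Mll3SI, 5 Mll4SI and 2 Mll3/4SI cells. Surface signal of CD117, the sorted protein, was lower in this class (medians of 1.31 to 1.79 on a centred log2 scale) than in stem-like cells (3.17 to 3.59), and B220, a B-cell form of CD45, was higher (3.44 to 3.87 against -0.29 to 0.41).

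Outside that class Ebf1, Pax5 and Pou2af1 were far lower, and no other named class overlapped the B-lymphoid-like range. The next class for Ebf1 was the lymphoid-primed one, with a median over the libraries of 38.3 CPM and a range of 0 to 85.7. Neighbouring classes below it overlapped in range. Pax5 reached at most 4.41 CPM and Pou2af1 at most 0.63 CPM in any other class. Lef1 had a second class, the T/NK-like cells, at 58.6 to 208 CPM, which did not overlap the B-lymphoid-like range. In erythroid-like cells Ebf1 was at 0.73, 1.503, 0 and 0 CPM, Pax5 at 0.18, 0.60, 0.44 and 0 CPM, Pou2af1 at 0.18, 0.30, 0 and 0 CPM and Lef1 at 0.54, 0.30, 0.88 and 0 CPM. These last values are the free RNA level for the B-restricted members. A count of 0 there allowed up to 1.32 CPM (Mll4SI) or 1.70 CPM (Mll3/4SI), the level of 3 UMIs.

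**Figure D1:**
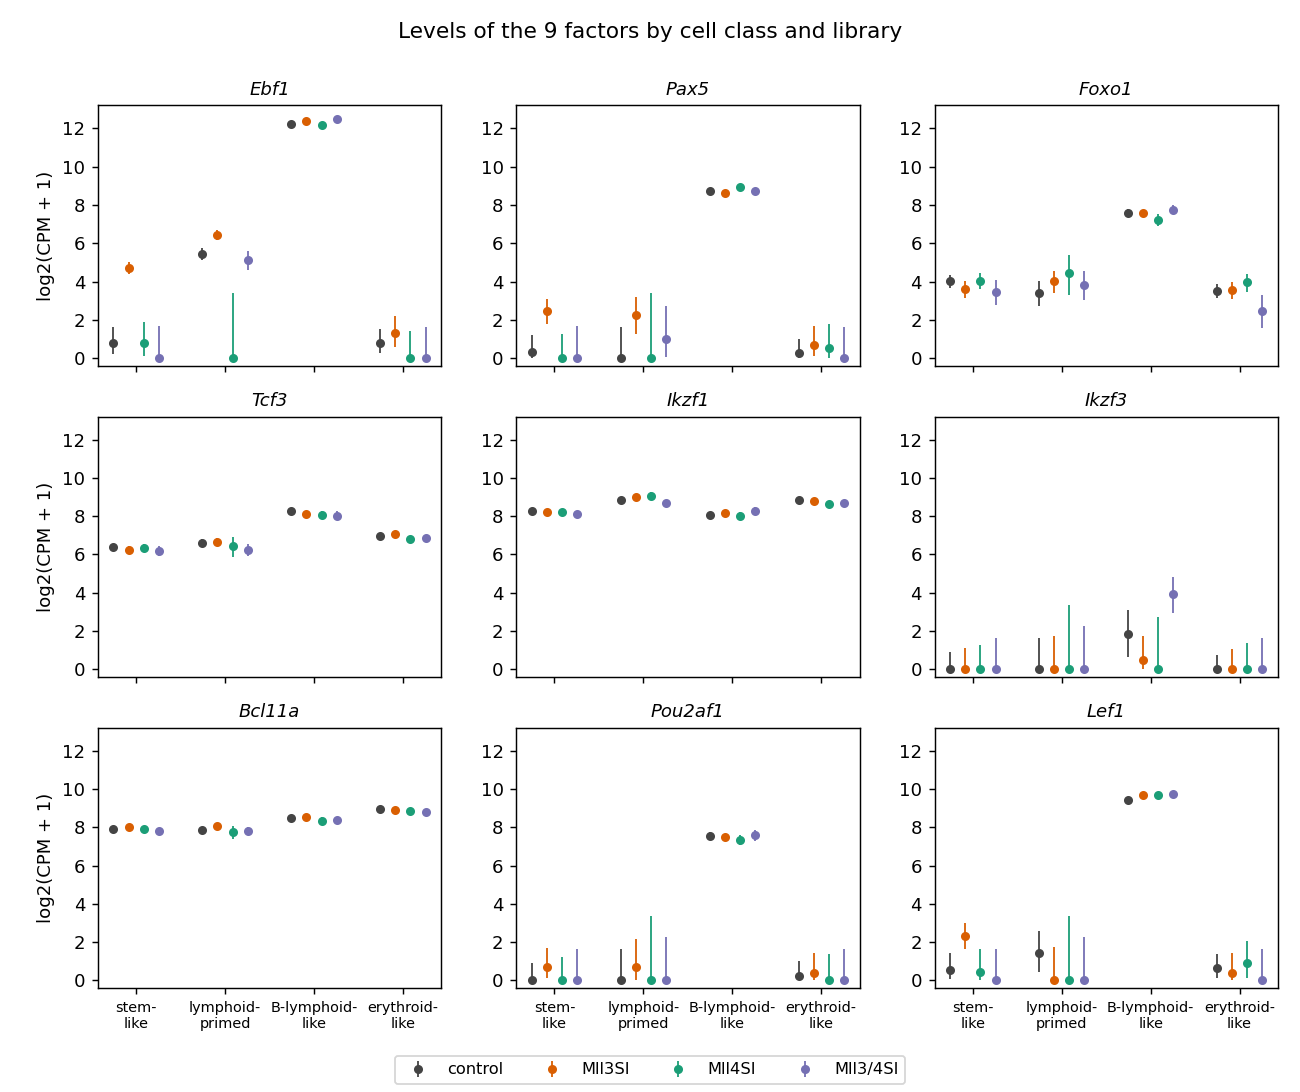
Level of each factor, as log2(CPM + 1), in 4 cell classes; points are the 4 libraries (1 per group) and bars are 95% counting intervals. Ebf1, Pax5, Pou2af1 and Lef1 stand high in B-lymphoid-like cells of every library, while Tcf3, Ikzf1 and Bcl11a are present in all 4 classes.

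The upstream factors had another shape. Tcf3 was at 302.5, 279, 268 and 261 CPM in B-lymphoid-like cells and at 71.0 to 100.1 CPM in stem-like and lymphoid-primed cells, with no overlap between these ranges. Foxo1, the insulin-regulated forkhead factor, was at 192, 190.5, 148 and 216 CPM in B-lymphoid-like cells against 9.69 to 20.5 CPM in lymphoid-primed and 9.90 to 15.3 CPM in stem-like cells. T/NK-like cells also held Foxo1 (74.3 to 172 CPM), a range that met that of B-lymphoid-like cells. Ikzf1 was highest in T/NK-like cells (626 to 930 CPM), next in lymphoid-primed cells (456, 516, 529 and 411 CPM) and lower in B-lymphoid-like cells (266, 288.5, 256 and 303 CPM), whose range met that of stem-like cells (303.5, 300.8, 299 and 279 CPM). Bcl11a, a zinc-finger repressor also known for silencing fetal globin, was highest in erythroid-like cells (503, 487, 455 and 443 CPM). B-lymphoid-like cells followed for Bcl11a at 355, 366, 320 and 329 CPM, and stem-like and lymphoid-primed cells overlapped at 212 to 267 CPM. For Tcf3 (112 to 136 CPM), Ikzf1 (403 to 452 CPM), Bcl11a and Foxo1 (4.53 to 14.5 CPM) the erythroid-like level was therefore no measure of free RNA. Ikzf3 was highest in T/NK-like cells, at 366 to 555 CPM, with 0 UMIs in every stem-like, lymphoid-primed and erythroid-like sum. T/NK-like cells numbered 11 to 47 per library.

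From lymphoid-primed to B-lymphoid-like cells, Ebf1 rose 114.5-fold in control [91.2, 145.8], 63.0-fold in Mll3SI [53.2, 75.1] and 171-fold in Mll3/4SI [122, 249]. In Mll4SI, with 0 Ebf1 UMIs in lymphoid-primed cells, it rose at least 600.0-fold, taking 3 UMIs as the limit. The lymphoid-primed side rests on few cells: the 2 highest held 58 of 75 UMIs in control, 62 of 137 in Mll3SI and 23 of 33 in Mll3/4SI. The Ebf1 intervals take no account of this, so the size of the rise is not compared between libraries. Foxo1 rose 19.8-fold [12.1, 34.7], 12.7-fold [8.42, 20.01], 7.23-fold [3.52, 17.2] and 16.2-fold [9.16, 31.2] in control, Mll3SI, Mll4SI and Mll3/4SI, and the 4 intervals share a range. Tcf3 rose by log2 1.65, 1.48, 1.67 and 1.80 in the same order. Ikzf1 went the other way, at log2 -0.78 [-0.97, -0.59], -0.84 [-0.99, -0.69], -1.05 [-1.35, -0.75] and -0.44 [-0.70, -0.19]. The last of these stayed under the fold used here to call a difference, 1.5-fold with an interval that leaves out 1. By that rule, among genes averaging at least 1 CPM, 7 members were higher and 1 lower of 9 in control, 6 and 1 of 8 in Mll3SI, 7 and 1 of 8 in Mll4SI, and 7 and 0 of 9 in Mll3/4SI. The rule called 28.6%, 31%, 18.8% and 24.4% of all genes in these 4 contrasts. Several of these members met the minimum level only through B-lymphoid-like cells and so had to differ: Pou2af1 and Lef1 in every library, Pax5 except in Mll3SI, Ebf1 in Mll4SI and Ikzf3 in Mll3/4SI. The count is an account of the members alone and is not read against those shares.

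From stem-like to lymphoid-primed cells the steps were smaller. Ikzf1 rose by log2 0.59 [0.46, 0.72] in control, 0.78 [0.64, 0.92] in Mll3SI and 0.82 [0.60, 1.05] in Mll4SI. Its Mll3/4SI value, 0.56 [0.36, 0.75], was just under the fold. Tcf3 stood at log2 0.22, 0.41, 0.06 and 0.08 and Bcl11a at -0.01, 0.06, -0.17 and 0.04, none past the fold. Foxo1 stood at -0.64 [-1.50, 0.15] in control and at 0.45, 0.42 and 0.43 in the other libraries, with intervals that held 0 throughout. Ebf1 rose 60.5-fold in control [19.9, 300.2], from 3 UMIs to 75, and at least 19.4-fold in Mll3/4SI. In Mll3SI it rose 3.36-fold [2.54, 4.48], and in Mll4SI there was no rise to measure, with 2 UMIs in stem-like and 0 in lymphoid-primed cells. Of the 81 Ebf1 UMIs of Mll3SI stem-like cells, 76 lay in 2 cells, 1 of them above both hashtag thresholds. The size of the Mll3SI rise rests on these 2 cells, and its interval takes no account of this. In control 58 of the 75 lymphoid-primed Ebf1 UMIs lay in 2 cells, which the control interval leaves out of account as well. Of the members tested, 2 were called in control, 3 in Mll3SI (with Lef1 lower), 1 in Mll4SI and 1 in Mll3/4SI. The rule called 14.7%, 16.5%, 11.2% and 12.3% of all genes. Ebf1 in control and Mll3/4SI met the minimum level only through lymphoid-primed cells, where it is high. Lef1 in Mll3SI met it only through stem-like cells, where 1 cell held 12 of 13 UMIs. These counts are therefore not read against those shares.

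Within the lymphoid-primed class Ebf1 belonged to a minority of cells. The 85 control cells held 75 Ebf1 UMIs, 42.7 CPM [33.6, 53.6], in 7 cells with 44, 14, 7, 6, 2, 1 and 1 UMIs. The 98 Mll3SI cells held 137 UMIs, 85.7 CPM [72.0, 101], in 13 cells, of which the highest had 32, 30, 26 and 14. The 41 Mll3/4SI cells held 33 UMIs, 33.8 CPM [23.3, 47.5], in 6 cells, of which the highest had 14 and 9. None of the 22 Mll4SI cells held an Ebf1 UMI. By UMIs, Mll3SI stood 2.01-fold above control [1.503, 2.695] and Mll4SI at least 5.57-fold below it, both past the fold, while Mll3/4SI did not differ past it (log2 -0.34 [-0.97, 0.27]). The rule called 4.49%, 5.66% and 5.7% of all genes in the 3 contrasts.

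By cells, the intervals of the libraries overlapped. The unthinned share of lymphoid-primed cells with an Ebf1 UMI was 8.24% in control, 13.3% in Mll3SI and 14.6% in Mll3/4SI, and 0 of 22 Mll4SI cells allows a share of up to 13.6% by the limit of 3 counts (the exact interval, which is two-sided, ends at 15.4%). At 3000 UMIs per cell the shares were 4.71% [1.30, 11.6], 9.28% [4.33, 16.9], 0% [0, 15.4] and 7.32% [1.54, 19.9] in control, Mll3SI, Mll4SI and Mll3/4SI, and all 4 intervals overlapped. Erythroid-like cells gave 0.39% [0.01, 2.14] in control and 0.47% [0.01, 2.61] in Mll3SI, with 0 in the other libraries. Median depth was 15746 to 23255 UMIs in lymphoid-primed and 11957 to 20629 in erythroid-like cells. The UMIs of 1 cell are not independent draws of a condition: the 2 highest cells held 77.3% of the Ebf1 UMIs in control, 45.3% in Mll3SI and 69.7% in Mll3/4SI. The UMI intervals take no account of this. The hashtags split the result further. With Hashtag1, Ebf1 was at 26.1 CPM in control against 95.6 CPM in Mll3SI, and with Hashtag2 at 58.1 CPM against 6.96 CPM, so that the log2 ratio was 1.87 among the first and -3.06 among the second. In Mll3SI 10 of 69 cells with Hashtag1 and 2 of 26 with Hashtag2 held an Ebf1 UMI. The Mll3SI ratio for Ebf1 was log2 0.72 without cells of both hashtags and -0.43 without cells that held a UMI of a B-cell receptor marker. Without the latter cells the lower Mll4SI level was no longer past the fold either. The marker-holding cells were 39 of 85 in control, 41 of 98 in Mll3SI and 9 of 22 in Mll4SI. They held 60 of the 75 Ebf1 UMIs of control and 126 of the 137 of Mll3SI. Removing them takes out most of the Ebf1 signal itself, so nothing is read from the values without them.

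**Figure D2:**
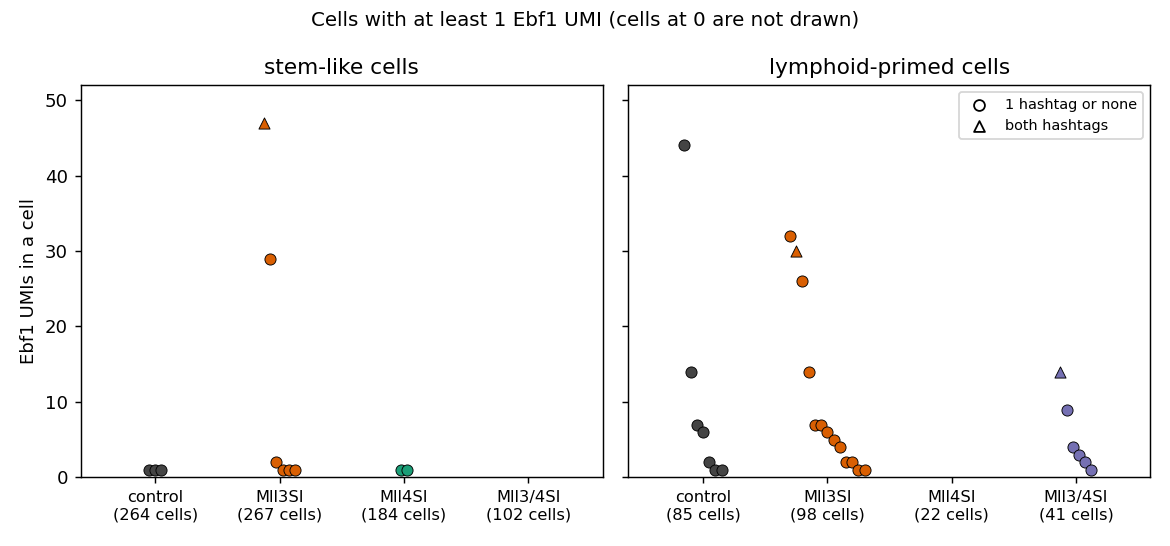
Ebf1 UMIs in each cell that held at least 1, by library, in stem-like and lymphoid-primed cells; triangles are cells above both hashtag thresholds, and cells at 0 are not drawn. In stem-like cells 2 Mll3SI cells (47 and 29 UMIs) stand apart, and in lymphoid-primed cells a few high cells carry most of the UMIs in each library.

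Pax5 was read in 3 lymphoid-primed Mll3SI cells (6 UMIs) and in 1 of Mll3/4SI (1 UMI), and in none of control or Mll4SI. Pax5 met the minimum level in this class only through Mll3SI, the library where it is high, so nothing is read from its call. Against control the Mll3SI level was at least 2.20-fold higher, with 3 of the 6 UMIs in a cell that carried both hashtags. Of the Ebf1-holding cells, 2 of 13 in Mll3SI and 1 of 6 in Mll3/4SI also held Pax5. None of them held Lef1, and none held Pou2af1. Foxo1 was read in 4 of 7, 4 of 13 and 1 of 6 Ebf1-holding cells of control, Mll3SI and Mll3/4SI, against 8 of 78, 15 of 85 and 7 of 35 other lymphoid-primed cells. The Foxo1 level itself was 9.69 [5.64, 15.5], 15.02 [9.62, 22.3], 20.5 [8.83, 40.3] and 13.3 [7.096, 22.8] CPM in control, Mll3SI, Mll4SI and Mll3/4SI, and no contrast of it passed the fold.

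The surface proteins set the Ebf1-holding lymphoid-primed cells apart in each of the 3 libraries that had them. Antibody values are log2 UMIs centred on the mean of each cell's 13 surface antibodies. The median of CD127, the interleukin-7 receptor that early lymphoid cells need, was 2.0 higher in cells with an Ebf1 UMI than without in control, 1.76 higher in Mll3SI and 1.60 higher in Mll3/4SI. CD135 (Flt3) was higher by 0.68, 1.23 and 1.42, Sca1 by 1.30, 1.16 and 2.05, and B220 by 0.63, 0.39 and 0.53. CD117 was lower, by -1.53, -1.41 and -1.31. The RNA differed too: Il7r, which encodes CD127, was at 227, 233 and 175 CPM in the Ebf1-holding cells and at 13.7, 29.5 and 18.3 CPM in the rest. Dntt, the terminal transferase of early lymphoid cells, was at 2899, 1872 and 1814 CPM against 374, 348 and 382 CPM. Dntt, Il7r and Flt3 are all among the markers that named the class. The cells with and without an Ebf1 UMI were of like depth, with medians of 19495, 16520 and 26698 UMIs per cell against 20592, 15293 and 22286. Cells of a library share their source, so these differences are a description of 7, 13 and 6 cells.

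**Figure D3:**
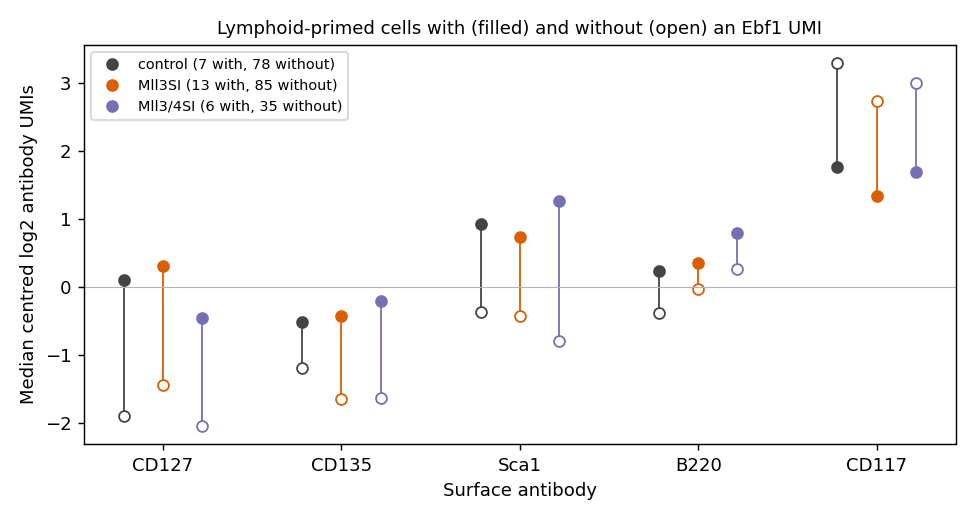
Median centred log2 antibody UMIs of lymphoid-primed cells with (filled) and without (open) an Ebf1 UMI in the 3 libraries with such cells; lines join the median with to the median without. CD127, CD135, Sca1 and B220 are higher and CD117 is lower in the Ebf1-holding cells of all 3 libraries.

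In stem-like cells Ebf1 was at 0.71 CPM in control (3 UMIs), 25.5 in Mll3SI (81 UMIs), 0.75 in Mll4SI (2 UMIs) and 0 in Mll3/4SI, where 3 UMIs would have been 1.75 CPM. Pax5 was at 0.24, 4.41, 0 and 0 CPM and Lef1 at 0.47, 4.09, 0.37 and 0 CPM. By UMIs the Mll3SI library was past the fold for Ebf1 (log2 5.18 [3.58, 7.48]), Pax5 (4.23 [1.51, 9.63]) and Lef1 (3.12 [0.98, 6.31]), 3 members of 7 tested where the rule called 5.17% of all genes. Each of the 3 met the minimum level only through Mll3SI, the library where it is high, so nothing is read from that count. The values rest on 2 cells. A single Mll3SI cell above both hashtag thresholds held 47 of the Ebf1, 11 of the Pax5 and 12 of the Lef1 UMIs, with 33 UMIs of Vpreb1, 19 of Vpreb3, 19 of Igll1 and 9 of Cd79a, the surrogate light chain and receptor genes of pro-B cells, beside 19 of Mecom and 12 of Hlf, stem-cell genes. A second cell, with Hashtag2, held 29 Ebf1 and 3 Pax5 UMIs beside 16 of Mecom and 10 of Hlf, and 2 UMIs in all of the 6 B-cell receptor markers. The other 4 cells held 5 Ebf1 UMIs. Of the 81 UMIs 76 lay in cells with a UMI of these markers, among them Cd79a, Cd79b, Vpreb1, Vpreb3 and Igll1. Without such cells the log2 ratio was 1.06, and no member passed the fold. Whether the 2 cells are doublets was not tested.

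The share of stem-like cells with an Ebf1 UMI was 1.14%, 2.25%, 1.09% and 0% in control, Mll3SI, Mll4SI and Mll3/4SI, and that of erythroid-like cells 1.53%, 2.33%, 0% and 0%. Median depth was 11282 to 15631 UMIs in stem-like and 11957 to 20629 UMIs in erythroid-like cells. The stem-like shares, which rest on few cells, are near the erythroid-like ones, except in Mll4SI. There 2 of 184 cells stand beside 0 of 110, which allows up to 2.73%. The Mll3SI share includes the 2 cells with 47 and 29 UMIs. At 3000 UMIs per cell the stem-like shares were 0% [0, 1.39], 1.12% [0.23, 3.25], 0.55% [0.01, 3.01] and 0% [0, 3.59]. For Pax5 the unthinned shares were 0.38%, 0.75%, 0% and 0% in stem-like and 0.38%, 0.93%, 0.91% and 0% in erythroid-like cells, and for Lef1 0.76%, 0.75%, 0.54% and 0% against 1.15%, 0.47%, 1.82% and 0%. Pou2af1 was read in 1 stem-like cell and Ikzf3 in none. The Mll3SI sums of Ebf1, Pax5 and Lef1 in stem-like cells stood above the erythroid-like ones (0.30 to 1.503 CPM) through the 2 cells described. Cells with both hashtags and many Ebf1 UMIs were also found among the remaining stem and progenitor cells, 1 in control with 161 UMIs and 1 in Mll3SI with 86. Among Mll3SI monocyte-like cells 3 such cells held 49, 39 and 16 of 140 Ebf1 UMIs.

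The broadly expressed members gave the firmest comparison in stem-like cells, since each rested on many cells. Relative to control, Ikzf1 stood at log2 -0.01 [-0.14, 0.11], -0.02 [-0.15, 0.11] and -0.12 [-0.27, 0.03] (Mll3SI, Mll4SI, Mll3/4SI). Bcl11a stood at 0.11 [-0.02, 0.25], 0.01 [-0.14, 0.15] and -0.11 [-0.28, 0.07], and Tcf3 at -0.14 [-0.38, 0.10], -0.03 [-0.28, 0.22] and -0.22 [-0.53, 0.08]. All 9 of these intervals lie within the 1.5-fold range on either side. Foxo1, with 17 to 64 UMIs, was less precise, at -0.45 [-1.09, 0.17], 0.02 [-0.58, 0.61] and -0.61 [-1.47, 0.18]. No member was called in Mll4SI or Mll3/4SI, where the rule called 7.33% and 7.1% of all genes. The thinned shares of stem-like cells were 50.5% to 60.2% for Ikzf1, 38.6% to 51.3% for Bcl11a, 18.4% to 21.8% for Tcf3 and 2.97% to 7.104% for Foxo1, against unthinned 91.0% to 95.1%, 85.0% to 91.3%, 53.9% to 70.1% and 11.99% to 18.9%. The median over the members with a ratio was log2 0.11, -0.01 and -0.17 in Mll3SI, Mll4SI and Mll3/4SI, beside 0.0056, -0.0037 and -0.07 over all genes. These medians cover 7, 6 and 4 members, since a 0 beside 3 or fewer UMIs gave no ratio, and so are not over the same genes. Ikzf3 and Pou2af1 did not meet the minimum level.

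In lymphoid-primed cells Ikzf1 was at log2 0.18 [0.04, 0.32], 0.22 [-0.01, 0.44] and -0.15 [-0.33, 0.03] relative to control in Mll3SI, Mll4SI and Mll3/4SI. Bcl11a was at 0.18, -0.15 and -0.05 and Tcf3 at 0.06, -0.19 and -0.36, none past the fold. The medians of the members with a ratio (6, 5 and 5) were 0.41, -0.15 and -0.15, beside 0.03, 0.03 and -0.07 over all genes. Markers of other cell types moved with the small Mll4SI class: its summed monocyte markers were at 847 CPM against 427 in control, 414 in Mll3SI and 518 in Mll3/4SI, and its summed B-lymphoid markers at 40.9 CPM against 163.5, 283 and 275, with 6 of 12 read at all and Igll1 and Rag1 among those at 0. Their part in the Ebf1 values was not tested. The 3 contrasts share the control library.

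In B-lymphoid-like cells, 8 of the 9 members differed from control by less than 1.5-fold in every library, Ikzf3 being the exception. No member passed the fold in Mll3SI or Mll4SI, where the rule called 4.43% and 5.91% of all genes. In Mll3/4SI Ikzf3 alone passed it, against 6.22%, and it did so on 9 UMIs in 2 of 37 cells beside 3 UMIs in 3 of 66 control cells (14.5 and 2.61 CPM, ratio 5.57 [1.39, 32.0]). Ikzf3 met the minimum level in this class only through Mll3/4SI, the library where it is high, so nothing is read from its call. Ebf1 stood at log2 0.14 [0.10, 0.19], -0.09 [-0.15, -0.02] and 0.24 [0.18, 0.30] (Mll3SI, Mll4SI, Mll3/4SI), and their order changed when each cell was weighted equally (-0.03, 0.09 and -0.01). Lef1 was above control by 0.25 [0.13, 0.37], 0.26 [0.10, 0.42] and 0.31 [0.15, 0.47], each less than 1.5-fold. Pax5 stood at -0.09 [-0.25, 0.07], 0.20 [-0.01, 0.41] and -0.01 [-0.24, 0.21], and Pou2af1 at -0.03 [-0.27, 0.21], -0.20 [-0.55, 0.15] and 0.04 [-0.30, 0.37]. For Foxo1 the value furthest from 0 was that of Mll4SI, -0.38 [-0.74, -0.03]. The upper and lower bounds for Ebf1, Pax5, Pou2af1, Lef1, Tcf3, Ikzf1 and Bcl11a all lie within the 1.5-fold range. The medians of the members with a ratio (9, 8 and 9) were -0.01, -0.12 and 0.17, beside 0.0034, 0.03 and 0.01 over all genes. Summed granulocyte markers in the class were at 4819, 1495, 11250 and 6330 CPM in control, Mll3SI, Mll4SI and Mll3/4SI, and their part in these ratios was not tested.

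**Figure D4:**
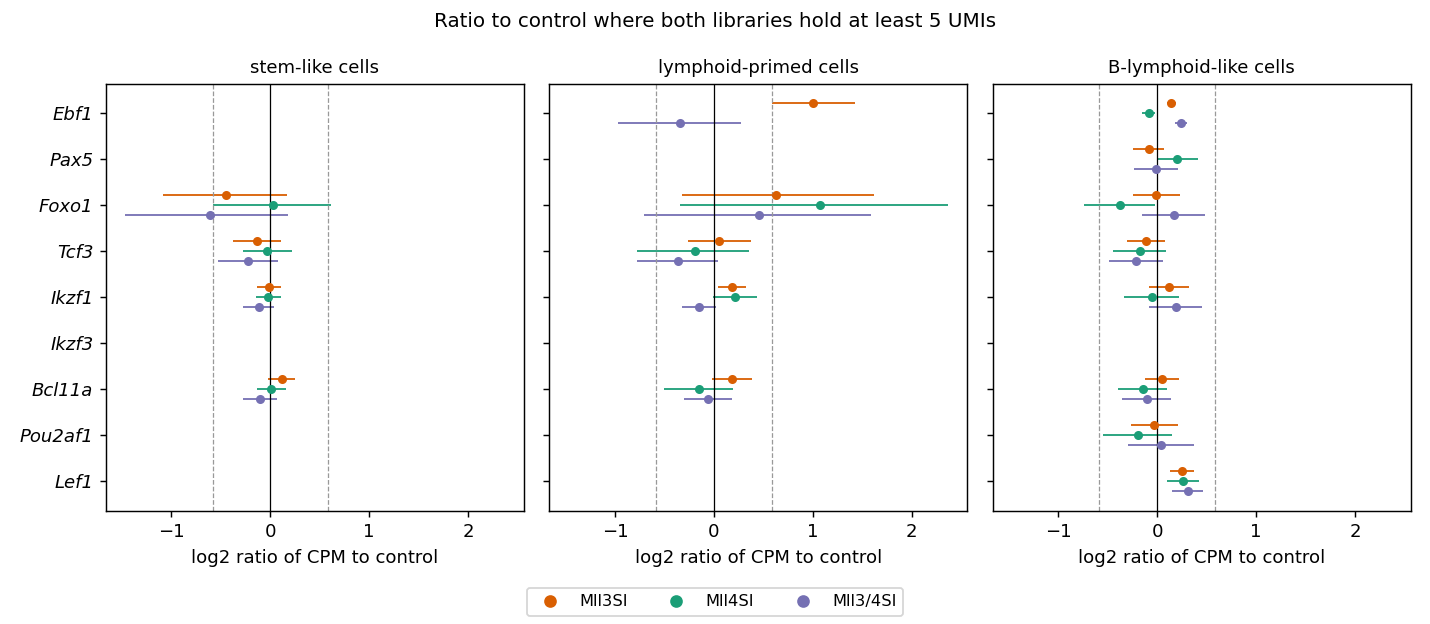
log2 ratio of CPM to the control library for each factor, in 3 cell classes, drawn where both libraries held at least 5 UMIs; bars are 95% counting intervals and dashed lines mark 1.5-fold. Most points lie between the dashed lines, while Ebf1 in Mll3SI lymphoid-primed cells lies beyond them, as do Foxo1 points with wide intervals.

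Genes around the members were read from lists of 40 genes in all. Of the E protein partners and inhibitors, Id3, an inhibitor of E proteins, went from 1 UMI in control lymphoid-primed cells to 230 CPM in B-lymphoid-like cells, and Id2 from 21.1 to 3.48 CPM (log2 -2.60 [-4.55, -1.12]). Of 10 B-cell genes bound by EBF1 or PAX5, 8 were called higher in control B-lymphoid-like than lymphoid-primed cells and 0 lower. Cplx2 went from 0 to 217 CPM, Bst1 from 0 to 51.3 CPM and Atp1b1, a sodium pump subunit, from 6.27 to 108 CPM. In the other libraries 7 to 8 of the 9 tested were higher. Of 19 other factors of early lymphoid and B cells 6 were higher and 6 lower in control, led by Ikzf2 (79.8 to 0 CPM), Ets1 (10.3 to 233 CPM) and Irf4 (0 to 22.6 CPM). Of the factors of other lineages 3 of 4 tested were lower, led by Cebpa, the myeloid factor, at 80.3 against 0.87 CPM, with Gata3 and Tcf7. The rule called 28.6% of all genes in control and 18.8% to 31% in the other libraries. In control, Cplx2, Bst1, Irf4 and Id3 met the minimum level only through B-lymphoid-like cells, and Ikzf2 and Cebpa only through lymphoid-primed cells. Such genes had to differ, so the counts of these lists are not read against those shares.

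Between libraries, genes of these lists were called most often in lymphoid-primed cells: 6 of 32 tested in Mll3SI, 7 of 32 in Mll4SI and 6 of 32 in Mll3/4SI. The rule called 4.49%, 5.66% and 5.7% of all genes there. Tcf7 and Gata3 are among the calls in each of these 3 contrasts and met the minimum level only through control, so these counts are not read against those shares. In stem-like cells 1, 4 and 4 of 31 were called, and in B-lymphoid-like cells 2, 5 and 2 of 37. In stem-like cells Ets1 was higher in Mll3SI (log2 0.85 [0.21, 1.49]). In Mll4SI stem-like cells Id2 was higher (1.18 [0.33, 2.06]), and Id1 (-1.47 [-3.23, -0.03]), Pou2f2 (-0.66 [-1.03, -0.31]) and Cd72 (-0.60 [-1.03, -0.18]) were lower. In Mll3/4SI Id1 (2 UMIs, -2.15 [-5.29, -0.13]), Cd72 (-0.78 [-1.33, -0.26]), Gata3 (-0.76 [-1.50, -0.07]) and Pou2f1 (-0.61) were lower. In lymphoid-primed cells Ets1 (1.46 [0.64, 2.33]) and Rag2, the recombinase subunit (1.07), were higher in Mll3SI, and Foxo3 (-0.67), Id2 (-1.37), Gata3 and Tcf7 lower. There Tcf7 had 27 UMIs in control and 0 elsewhere. Gata3 had 21 UMIs in control and 1, 0 and 3 in Mll3SI, Mll4SI and Mll3/4SI. Both T-lineage factors met the minimum level only through control, the library where they are high, so nothing is read from their calls. The 3 contrasts also share that 1 control count.

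In Mll4SI lymphoid-primed cells Irf8 (1.07 [0.86, 1.27]) and Runx1 (0.79 [0.63, 0.94]) were higher and Foxo3 (-0.93) and Cd72 (3 UMIs, -2.31 [-4.63, -0.71]) lower. In Mll3/4SI Irf8 (-0.71 [-0.95, -0.49]), Pou2f1 (33 against 119 UMIs), Id2 (-2.04) and Syk (-0.59) were lower. In B-lymphoid-like cells Ikzf2 was read with 13, 8 and 9 UMIs (Mll3SI, Mll4SI, Mll3/4SI) beside 0 in control, at least 2.09-fold, 4.72-fold and 5.57-fold higher. Spib (-1.05) was lower in Mll3SI, and Pou2f2 (3 UMIs, -2.29 [-4.66, -0.58]) was lower and Blk (1.16), Cd72 (0.67) and Atp1b1 (0.65) were higher in Mll4SI. Bst1 (0.68 [0.11, 1.25]) was higher in Mll3/4SI. Ikzf2 met the minimum level only through the libraries where it is high. The shares of all genes called in the same contrasts are given above. The lymphoid-primed counts, which hold Tcf7 and Gata3, and the B-lymphoid-like counts, which hold Ikzf2, are not read against them.

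Over 32 sums of a class in a library, each of at least 30 cells, the genes whose log2(CPM + 1) followed Ebf1 most closely of 12941 were Blnk (Pearson r 0.98), Epha2 (0.976) and Gfra1 (0.975). Those nearest to Pax5 were Pou2af1 (0.989), Vpreb3 (0.987) and Chst3 (0.986), and among those nearest to Pou2af1 were Gm34095 (0.995) and Lef1os1 (0.995), an RNA antisense to Lef1 by its name. Lef1 was followed by Id3 (0.985), Grb7 (0.976) and Irf4 (0.976). The sums share libraries and cell classes, and 1 class holds nearly all of the signal, so r describes that class. Ebf1 had an r of 0.944 with Pax5, 0.914 with Pou2af1, 0.855 with Lef1, 0.814 with Tcf3 and 0.742 with Foxo1, and of 0.360 with Bcl11a, 0.062 with Ikzf3 and -0.123 with Ikzf1.

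A state of 2 clusters that no marker list named, with 1820 cells in Mll3/4SI and 0 to 8 in each other library per cluster, and with Cpa3 and Fcer1a, genes of mast cells and basophils, among its leading genes, was also read for the 9 genes. Ebf1 was at 0.23 CPM [0.11, 0.42], Pax5 and Pou2af1 at 0.046 CPM each and Lef1 at 0.069 CPM, under the Mll3/4SI erythroid-like limit of 1.70 CPM. Bcl11a was at 110 CPM, Ikzf1 at 202 CPM, Tcf3 at 57.5 CPM and Foxo1 at 11.2 CPM, against 220, 279, 71.0 and 9.90 CPM in stem-like cells of that library.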

How the data were processed

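The deposited values are UMI counts for each gene or antibody in each barcode. The file headers name Cell Ranger 7.1.0, and the submitters' processing notes name mm10. Steps that the authors took after counting are not given in the sources used here. The members and gene lists were chosen with earlier results of these data known. Cells were kept with at least 500 genes, 1000 UMIs and at most 10% mitochondrial UMIs, and Scrublet's top 0.8% per 1000 cells were removed in each library. All libraries were clustered jointly (scanpy 1.11.5, leidenalg 0.10.2, 30 components, 15 neighbours, resolution 1) without the members, listed genes or markers. Stem and progenitor clusters were split again at resolution 0.6. How many markers earned a name was decided once clusters had been seen, as were the hashtag thresholds (110 and 348 UMIs), and names may differ from the study's.

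UMIs were summed per class and library. Intervals are exact (Poisson, conditional binomial or Clopper-Pearson) at 95%, and cover counting error only. A 0 beside more than 3 UMIs took 3 UMIs as its limit per sum. The ratio was tested on simulated data. All members were named, with, from each other list, the 3 called genes furthest from 0 per contrast. Likeness added 1 CPM. Alternatives changed the scaling, cell filter, classes, doublets, hashtag and fold. Positions came from GENCODE M21 and promoters from RefSeq, both on GRCm38. An item that the naming rule gives is not reported here.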

Additional observations from a re-analysis of the deposited data

How the results depend on the processing

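The median log2 ratio of the members to control has no counting interval of its own. It was set against that of the middle member, or the mean of those of the 2 middle members. It stayed inside in 86 of 93 recomputations. That is a loose measure: for Mll3SI in lymphoid-primed cells the interval was -0.17 to 1.001, so a fall from 0.41 to -0.08 stayed inside. In stem-like cells of Mll3SI the median moved from 0.11 to -0.11 at Leiden resolution 2, -0.12 with Hashtag1 cells only and -0.08 with Hashtag2 cells only. In lymphoid-primed cells it moved with Hashtag2 cells only to -0.70 in Mll4SI and 0.10 in Mll3/4SI, and to 0.23 in Mll3/4SI without cells holding a B-cell receptor marker, an alternative added after the data were seen. In B-lymphoid-like cells of Mll4SI it moved to 0.08 as a mean over cells. Of the single members, Ebf1 in lymphoid-primed cells of Mll3SI turned to -3.06 with Hashtag2 cells only and to -0.43 without cells holding a B-cell receptor marker. The latter removal took out 126 of the 137 Ebf1 UMIs of Mll3SI and 60 of the 75 of control, so nothing is read from it. In B-lymphoid-like cells Ebf1 turned to -0.03, 0.09 and -0.01 (Mll3SI, Mll4SI and Mll3/4SI) as a mean over cells, to 0.06 in Mll4SI with Hashtag1 cells only and to -0.13 in Mll3/4SI with Hashtag2 cells only, and Lef1 in Mll4SI to -0.01 with Hashtag2 cells only. The cause was not tested. In stem-like cells of Mll3SI the number of members past the fold went from 3 to 1 without cells of both hashtags and to 0 at Leiden resolution 2. In lymphoid-primed cells that number ranged over the alternatives from 0 to 2 for Mll3SI (2 as reported), 0 to 2 for Mll4SI (1 as reported) and 0 to 1 for Mll3/4SI (0 as reported). Over all stem and progenitor clusters 1 member was past the fold in Mll4SI and 1 in Mll3/4SI, against 0 in stem-like cells. In the remaining stem and progenitor cells Ebf1 was called lower in both, where 1 control cell with both hashtags held 161 of 164 control UMIs. In B-lymphoid-like cells of Mll3/4SI the number went from 1 to 0 with a minimum of 10 CPM. No share of all genes is given for these alternative counts, so nothing is read from them. No paired analysis was possible because each group has 1 library. The number of cells limited the lymphoid-primed shares: with 0 of 22 Mll4SI cells, a share of Ebf1 cells up to 13.6% is still allowed.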
